A study of Mus musculus with 6 samples.

Results

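The genes described here license replication origins and copy DNA at the fork: the origin recognition complex and its loading factors, the MCM helicase with its activators, the sliding clamp and its loader, the polymerases, and the G1/S factors that accompany them. All 43 listed genes were measured, among 19733 genes with a probe set of their own. For each gene the probe set whose only annotated symbol is that gene was taken, and the brightest where there were several. The cells were mouse bone marrow pre-B cells with Ppp2r1a fl/fl alleles (Ppp2r1a encodes the scaffold on which the phosphatase PP2A is assembled), transformed by transduction with BCR-ABL1, the fusion kinase of a form of acute lymphoblastic leukaemia. RNA on 3 arrays came from such cells transduced with Cre to remove Ppp2r1a, and RNA on the other 3 from cells given an empty vector (EV). The EV cells are labelled wild type, but they carry the same floxed alleles and the same oncogene. None of the 6 arrays held cells with Cre and without floxed alleles, so effects of Cre itself and of the deletion cannot be told apart. The titles number the arrays as repeats without naming cultures or mice, so the p-values rest on array-to-array spread that may be technical only.

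Replication is confined to once per cell cycle by a division of labour. In G1, the origin recognition complex, with Cdc6 and Cdt1, loads the MCM ring onto DNA in an inactive state, and in S phase the ring is switched on by Cdc45 and the GINS complex. Polymerase alpha with primase then starts each strand, replication factor C loads the PCNA clamp, and polymerases delta and epsilon extend. Transcription of many of these genes is driven by E2F factors once cyclin-dependent kinases have inactivated the retinoblastoma protein, which makes them a usual readout of cells entering S phase.

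Because E2F control is the common feature this group is known for, its promoters were searched for the E2F-type letters TTTGGCGC, TTTCCCGC, TTTGCCGC and TTTCGCGC on both strands, with overlapping matches counted as 1. RefSeq promoter windows (GRCm38.p6; 250 bases before to 50 after an annotated start) were given for 34 of the 43 genes, and 15 of these (44.1%) held a match. Of 15476 genes tested on the arrays that have a window, 3.49% held one, and among those at least as bright as the dimmest member 5.86% did. Base composition was close in the latter comparison, with a median GC content of 61.8% in the members' windows and 61.3% in the others. All 27025 genes in the promoter table gave 2.60%. Of 19 matches in members, 12 lay entirely upstream of the start. Upstream windows are printed below for a helicase subunit, a GINS subunit and a ubiquitin ligase adaptor with matches. Those of the members with the largest difference down (Orc5) and up (Ccne1) among the 34 follow, and hold none in the 300 bases searched. Capitals mark the matched letters, and each line runs 5′ to 3′ along the gene's strand and ends at the base before the start.
Mcm6 (chr1:128359706-128359955, minus strand): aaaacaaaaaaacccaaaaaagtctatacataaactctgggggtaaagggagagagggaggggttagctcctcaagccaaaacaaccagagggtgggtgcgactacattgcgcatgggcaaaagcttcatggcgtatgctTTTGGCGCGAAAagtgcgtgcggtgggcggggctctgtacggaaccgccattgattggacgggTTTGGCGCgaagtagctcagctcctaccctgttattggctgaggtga
Gins3 (chr8:95633309-95633558, plus strand): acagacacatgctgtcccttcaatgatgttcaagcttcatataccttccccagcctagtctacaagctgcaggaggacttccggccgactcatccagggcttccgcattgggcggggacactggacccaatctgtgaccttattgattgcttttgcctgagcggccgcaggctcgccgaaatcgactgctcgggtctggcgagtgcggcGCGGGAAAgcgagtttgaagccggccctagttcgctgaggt
Dtl (chr1:191575545-191575794, minus strand): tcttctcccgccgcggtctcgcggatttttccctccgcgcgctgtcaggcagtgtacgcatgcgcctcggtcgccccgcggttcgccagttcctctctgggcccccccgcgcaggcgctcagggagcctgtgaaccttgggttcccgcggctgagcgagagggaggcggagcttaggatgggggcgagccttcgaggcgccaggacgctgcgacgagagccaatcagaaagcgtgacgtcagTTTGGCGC
Orc5 (chr5:22550339-22550588, minus strand): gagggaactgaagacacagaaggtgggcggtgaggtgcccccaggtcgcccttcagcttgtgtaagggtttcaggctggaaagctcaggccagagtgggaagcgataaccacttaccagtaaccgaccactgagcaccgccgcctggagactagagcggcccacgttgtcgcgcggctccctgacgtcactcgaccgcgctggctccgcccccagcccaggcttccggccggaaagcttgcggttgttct
Ccne1 (chr7:38107491-38107740, minus strand): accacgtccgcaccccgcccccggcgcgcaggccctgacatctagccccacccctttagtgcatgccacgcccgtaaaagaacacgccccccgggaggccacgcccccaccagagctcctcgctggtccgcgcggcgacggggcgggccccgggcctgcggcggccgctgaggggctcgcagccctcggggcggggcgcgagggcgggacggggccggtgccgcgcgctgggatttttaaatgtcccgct

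Matches in further licensing, helicase, polymerase and chromatin genes are shown with their flanks, 30 bases each, because the same core letters recur in genes of different function.
Orc1 (chr4:108579416-108579445, plus strand): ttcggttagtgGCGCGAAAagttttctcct
Orc3 (chr4:34614965-34614994, minus strand): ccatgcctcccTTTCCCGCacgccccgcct
Cdc6 (chr11:98908002-98908031, plus strand): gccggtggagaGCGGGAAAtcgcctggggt
Mcm5 (chr8:75109347-75109376, plus strand): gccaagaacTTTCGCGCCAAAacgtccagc
Pola1 (chrX:93632275-93632304, minus strand): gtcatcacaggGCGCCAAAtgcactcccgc
Uhrf1 (chr17:56304117-56304146, plus strand): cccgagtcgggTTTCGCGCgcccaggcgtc
The letters of Mcm5 and the upstream run of Mcm6 hold a match on both strands, so each forms a run of 12 bases. In Mcm6 a further match lay 47 to 40 bases before the start, and in Dtl the match ended at the last base before it. Helicase genes held matches most often (5 of 8 with a window), followed by licensing and polymerase genes (4 of 8 and 3 of 6), the G1/S set (2 of 5) and the clamp with its loader (1 of 7). These are letters in a window, not measured binding. The 15 genes with a match had a median difference between Cre and EV of 0.022 log2 units and the 19 without one 0.018 (no test was made).

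**Figure D1:**
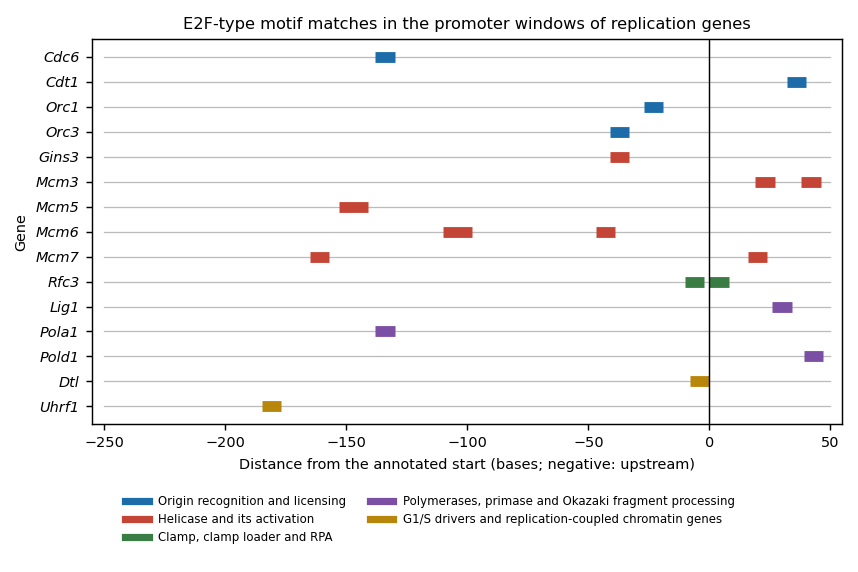
Position of E2F-type motif matches (blocks) in the promoter windows of the 15 replication genes that hold one, as distance in bases from the annotated start (vertical line), coloured by role. Of the 19 matches, 13 begin within 100 bases of the start, and Mcm3, Mcm6, Mcm7 and Rfc3 have 2 each.

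The deleted gene fell as labelled: Ppp2r1a read 7.12, 6.98 and 6.92 in Cre and 9.06, 9.05 and 9.06 in EV. The fall was 4.15-fold, and the Cre levels stayed above the medians of their arrays. The source of the remaining signal was not tested. Array medians lay between 5.22 and 5.27 log2 units. The deposited values had been quantile-normalized, which brings array medians close, so this does not show that the arrays were alike. All 11 pre-B markers measured, among them Cd79a, Pax5, Vpreb1 and Igll1, were above the array median on all 6 arrays. None of 7 T and NK, 7 myeloid and 4 erythroid markers was, and of 6 stromal and endothelial markers Pecam1 and Col1a1 were. The mean level of the pre-B markers was 10.53 to 10.62 in Cre and 10.80 to 10.85 in EV. Single pre-B markers were split, with 5 higher and 6 lower in Cre and a median difference of -0.014. Rag1 (-2.09) and Dntt (-0.48) had the largest falls. For the myeloid markers the mean level was 4.20 to 4.22 in Cre and 4.13 to 4.14 in EV. The part of these shifts in the values below was not tested.

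The replication genes as a group stayed close to their EV levels in the Cre cells. Every member read above the array median on all 6 arrays, with levels from 6.16 to 11.85 log2 units. None of the 43 passed the test in either direction (limma over all 19733 genes, adjusted p below 0.05), against 3.49% of all genes. At an unadjusted p below 0.05, 3 members were higher and 2 lower (11.6%), against 16.1% of all genes (7.10% higher and 9.02% lower). Among the 6726 genes at least as bright as the dimmest member, the share was 22.2%. Cre arrays lay wholly above EV arrays for 8 members and wholly below for 3 (25.6%). The same lack of overlap was seen for 22.5% of all genes (10.3% higher and 12.2% lower) and for 36.1% of those bright genes. With both directions pooled, the members' share was below that of the bright genes on both counts. By direction, Cre lay wholly above EV for 1083 of the 6726 bright genes and wholly below for 1348. For lack of overlap, only the members' share wholly below was smaller than that of the bright genes. The differences ran from -0.29 (Orc5) to 0.23 (Ccne1), with a median of 0.018 against -0.0027 for all genes. Of the 43, 28 were higher in Cre (65.1%), as were 49.1% of all genes. Here a shift in the share of cells in S phase and a change in RNA per cell cannot be told apart. The values are relative to the other genes on each array.

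How small a change the arrays leave possible can be read from the intervals. The 95% interval of the difference, taken gene by gene, lay within 1.5-fold either way for all 43 members, against 92.7% of all genes. It lay within 0.32 log2 units either way for 38 of them (88.4%), against 54.7% of all genes and 70.7% of the 6726 genes at least as bright as the dimmest member. The 5 with wider room were Orc5, Gins2, Prim2, Ccne1 and Ccne2. Members also repeated well: their median SD within a group was 0.063 log2 units, against 0.108 for all genes and 0.070 for genes of that brightness. A member would have passed the test with a difference of 0.28 to 0.44 log2 units, depending on its spread (median 0.32).

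By the members' median deviation, the EV arrays were spread more widely than the Cre arrays, with EV replicate 1 lowest. The median of the members' deviations from their EV means was 0.032, 0.020 and 0.034 for Cre, and for EV it was -0.025, 0.024 and 0.019. EV replicate 2 thus lay above Cre replicate 2, and the groups overlapped on this measure.

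**Figure D2:**
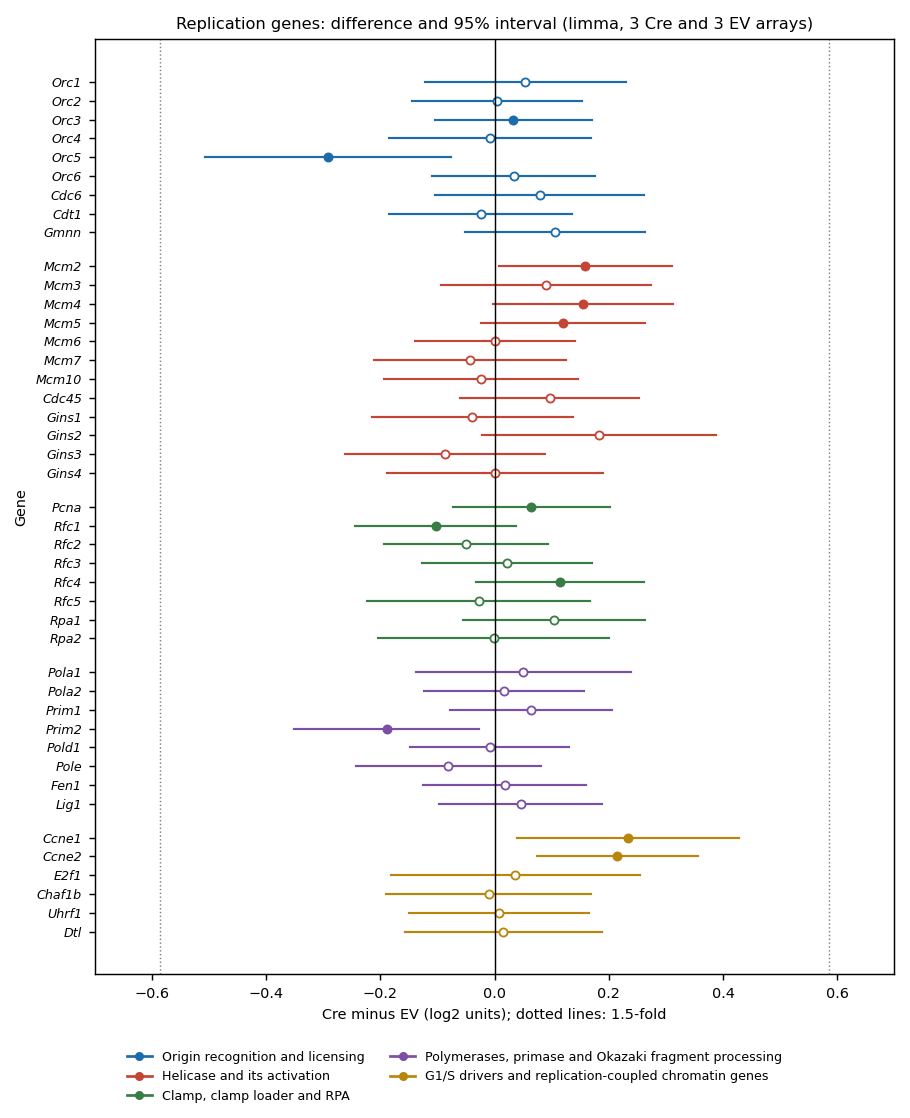
Difference between Cre and EV (log2 units, horizontal axis) for each of the 43 replication genes, coloured by role, with the 95% interval from limma over 3 Cre and 3 EV arrays. Filled points are the 11 genes whose Cre and EV arrays do not overlap, and all intervals lie inside the dotted lines at 1.5-fold.

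Among origin recognition and licensing genes, Orc5 stood lowest in Cre while the other subunits of its complex differed from EV by 0.05 log2 units or less. Of these 9 genes, 6 were higher and 3 lower, with a median of 0.033, and none passed. Orc5, an ATP-binding subunit of the origin recognition complex, read 6.45, 6.41 and 6.16 in Cre and 6.72, 6.56 and 6.61 in EV. All Cre arrays were below all EV arrays, with Cre replicate 3 lowest. The difference was -0.29 (SE 0.09; 95% interval -0.51 to -0.08), or 1.22-fold, at a limma adjusted p of 0.164. Leaving out 1 array at a time moved it between -0.35 and -0.20. The other 5 subunits of the complex differed by -0.0080 (Orc4) to 0.05 (Orc1). Orc3 shows how little a lack of overlap can amount to: its Cre arrays, at 8.79 to 8.80, lay above EV arrays at 8.73 to 8.79, a difference of 0.03.

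The factors that load the helicase, and their inhibitor, differed by 0.11 or less. Gmnn, which encodes geminin, the inhibitor that binds Cdt1 and blocks a second licensing, read 7.76, 7.73 and 7.61 in Cre and 7.57, 7.58 and 7.63 in EV. Cre replicate 3 fell inside the EV range, and the difference was 0.11 (SE 0.07; limma adjusted p = 0.518). Cdt1, its target, differed by -0.024 (95% interval -0.18 to 0.14). Cdc6, an ATPase that works with the origin recognition complex in loading, read 7.35, 7.53 and 7.43 in Cre and 7.25, 7.40 and 7.42 in EV. The groups overlapped, and the difference was 0.08 (SE 0.08; limma adjusted p = 0.701), or 0.025 to 0.12 with 1 array left out.

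In the helicase, Mcm2, Mcm4 and Mcm5 read higher in every Cre array than in any EV array, whereas Mcm3, Mcm6 and Mcm7 overlapped. None of these 6 subunits, which form 1 ring, passed. Among all genes 10.3% lay wholly higher in Cre, as did 1083 of the 6726 genes at least as bright as the dimmest member. Mcm2 read 8.80, 8.70 and 8.79 in Cre and 8.58, 8.58 and 8.66 in EV. Its difference of 0.16 (SE 0.07; 95% interval 0.0077 to 0.31) had a limma adjusted p of 0.286. Mcm4 read 9.22, 9.24 and 9.28 in Cre and 9.01, 9.10 and 9.17 in EV, and differed by 0.15 (SE 0.07; limma adjusted p = 0.321). Mcm5 read 8.30, 8.35 and 8.39 in Cre and 8.24, 8.20 and 8.25 in EV, with all Cre arrays above all EV arrays. Its difference was 0.12 (95% interval -0.024 to 0.26). Mcm6 differed by 0.0010 (95% interval -0.14 to 0.14) and Mcm7 by -0.04 (95% interval -0.21 to 0.13). The intervals of all 6 overlap, and differences between subunits were not tested. Mcm5 and Mcm6 both carry the 12-base E2F-type run printed above.

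The activators of the ring were equally mixed. Gins2, a GINS subunit, read 8.69, 8.66 and 8.87 in Cre and 8.51, 8.68 and 8.47 in EV. EV replicate 2 lay inside the Cre range, and the difference was 0.18 (SE 0.09; 95% interval -0.022 to 0.39; limma adjusted p = 0.374). The other subunits of that complex differed by -0.04 (Gins1), -0.09 (Gins3) and 0.0017 (Gins4). Cdc45, which joins GINS and the MCM ring in the active helicase, differed by 0.10, with EV replicate 3 inside the Cre range. Mcm10, which helps switch the helicase on, differed by -0.024. Over the 12 helicase genes 8 were higher and 4 lower, with a median of 0.046.

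**Figure D3:**
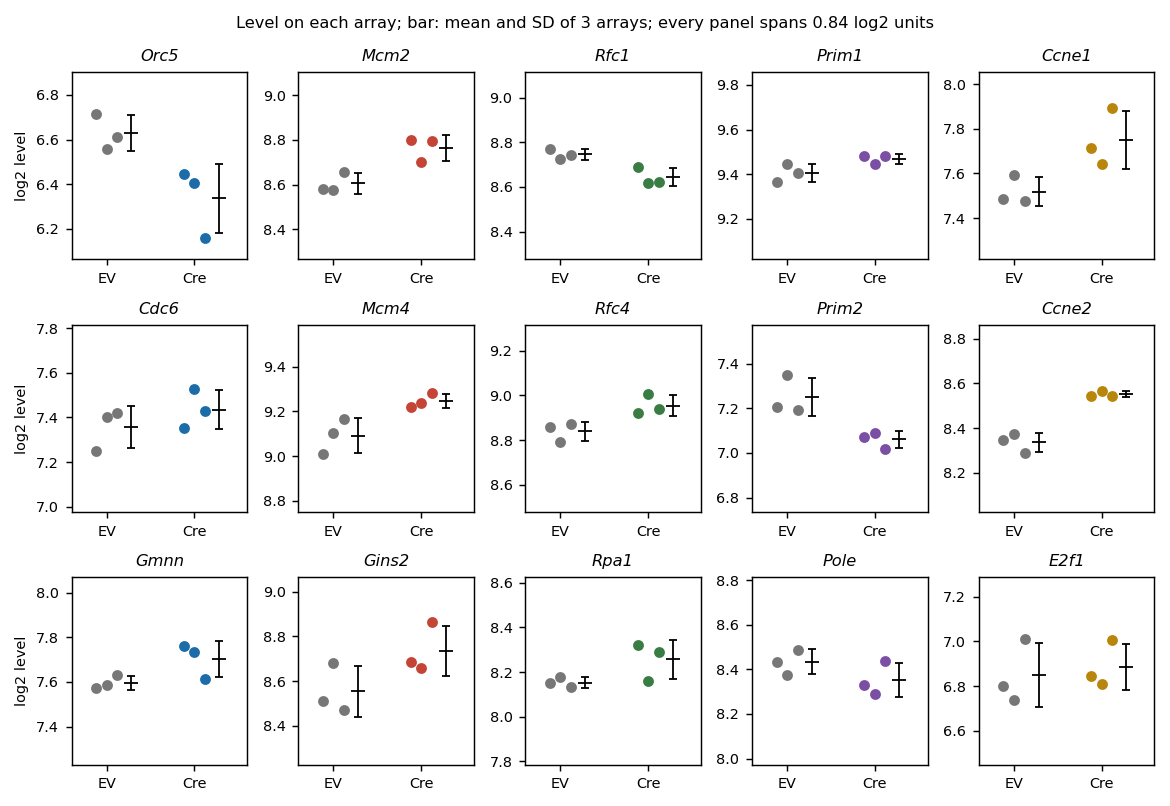
Log2 level on each array for the 3 genes of each role with the smallest p (points: arrays, grey EV and coloured Cre; bars: mean and SD of 3 arrays). Each column of panels is 1 role, ordered as in the text, and every panel spans the same height; only Orc5, Mcm2, Mcm4, Rfc1, Rfc4, Prim2, Ccne1 and Ccne2 separate completely.

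At the clamp, its loader and the single-strand binding protein, differences ran from -0.10 to 0.12. Of the 8 genes, 4 were higher and 4 lower, with a median of 0.010, and none passed. Pcna, the clamp that tethers polymerases to DNA, read 11.82, 11.85 and 11.81 in Cre and 11.76, 11.75 and 11.79 in EV. Without overlap, the difference was still only 0.06 (95% interval -0.07 to 0.20). A second probe set assigned to Pcna gave identical values on all 6 arrays, so it adds no independent reading, and signal shared with a near-identical copy cannot be told apart.

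Within replication factor C, the loader, 2 of 5 subunits did not overlap (40%), 1 higher and 1 lower in Cre. The same was seen for 22.5% of all genes and 36.1% of those at least as bright as the dimmest member. Rfc4, one of the small subunits, read 8.92, 9.01 and 8.94 in Cre and 8.86, 8.79 and 8.87 in EV, higher in all Cre arrays. Its difference was 0.12 (SE 0.06; limma adjusted p = 0.443). Rfc1, the large subunit, read 8.69, 8.62 and 8.62 in Cre and 8.77, 8.72 and 8.74 in EV, lower in all Cre arrays, by -0.10 (SE 0.06; limma adjusted p = 0.479). Rfc2, Rfc3 and Rfc5 lay between them, from -0.05 to 0.022, with overlapping groups. Rpa1, the large subunit of the single-strand binding protein, read 8.32, 8.16 and 8.29 in Cre and 8.15, 8.18 and 8.13 in EV. Cre replicate 2 lay inside the EV range (difference 0.10, SE 0.07; limma adjusted p = 0.533), and its partner Rpa2 differed by -0.0013.

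The polymerase and primase genes repeated most closely of the 5 roles (median SD within a group 0.036), and Prim2 had their largest difference. Prim2, the large primase subunit, read 7.07, 7.09 and 7.02 in Cre and 7.21, 7.35 and 7.19 in EV, lower in all Cre arrays. The difference was -0.19 (SE 0.07; 95% interval -0.35 to -0.028), or 1.14-fold, at a limma adjusted p of 0.230. Prim1, the catalytic primase subunit, read 9.48, 9.45 and 9.48 in Cre and 9.37, 9.45 and 9.41 in EV. EV replicate 2 lay inside the Cre range, with a difference of 0.06 (SE 0.06; limma adjusted p = 0.686). Pole, the catalytic subunit of the leading-strand polymerase, read 8.33, 8.29 and 8.44 in Cre and 8.44, 8.38 and 8.49 in EV, a difference of -0.08 (SE 0.07; limma adjusted p = 0.646). The other 5, Pola1 and Pola2 of polymerase alpha, Pold1 of polymerase delta, the flap nuclease Fen1 and the ligase Lig1, differed by -0.0083 to 0.05. Of the 8 genes, 5 were higher and 3 lower, with a median of 0.017.

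The cyclins that drive S phase entry were the members with the smallest p and the largest positive difference. Ccne2, cyclin E2, read 8.54, 8.57 and 8.54 in Cre and 8.35, 8.37 and 8.29 in EV, with all Cre arrays above all EV arrays. Its difference was 0.22 (SE 0.06; 95% interval 0.07 to 0.36), or 1.16-fold, and did not pass over all genes (limma adjusted p = 0.122). It passed in 2 of 14 alternative settings: without the lowest 50% of genes by level (limma adjusted p = 0.0272) and with a variance trend and robust fit (limma adjusted p = 0.0131). Over all 14 the value ran from 0.0131 to 0.286. Ccne1, cyclin E1, read 7.72, 7.64 and 7.90 in Cre and 7.48, 7.59 and 7.48 in EV, again without overlap. It differed by 0.23 (SE 0.08; 95% interval 0.04 to 0.43; limma adjusted p = 0.217).

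For the transcription factor and chromatin genes of the same set, Cre and EV arrays overlapped. E2f1, the transcription factor that activates many genes of this set, read 6.84, 6.81 and 7.005 in Cre and 6.80, 6.74 and 7.01 in EV. The groups overlapped, and the difference was 0.04 (SE 0.09; 95% interval -0.18 to 0.25; limma adjusted p = 0.901). Its sign turned without Cre replicate 3 (-0.023) or EV replicate 2 (-0.019). Chaf1b, of the histone chaperone that rebuilds nucleosomes behind the fork, Uhrf1, which guides maintenance methylation, and Dtl, the adaptor that directs Cdt1 to degradation, differed by -0.010 to 0.015. Over the 6 genes the median was 0.026, with 5 higher and 1 lower.

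Other genes of replication, from a list of 60 that adds initiation, fork, checkpoint, chromatin, G1/S and nucleotide supply factors, were tested in the same fit. Of 58 measured, 0 rose and 1 fell, against 1.35% and 2.14% of all genes. At an unadjusted p below 0.05, 5 were higher and 5 lower (17.2%), against 16.1% of all genes. Groups did not overlap for 17 (29.3%), against 22.5% of all genes. Among the 6726 genes at least as bright as the dimmest member, these shares were 22.2% and 36.1%. With both directions pooled, those of the further genes were thus lower. By direction, Cre lay wholly above EV for 11 further genes and wholly below for 6. The count that passed was 3 and 7 without the lowest 25% and 50% of genes by level, and 6 with a variance trend and robust fit. The median difference was 0.017, with 31 genes higher and 27 lower. The gene that fell was Tfdp2, a DP protein that pairs with E2F factors on DNA. It read 7.99, 8.01 and 7.94 in Cre and 8.47, 8.46 and 8.49 in EV. The gap between groups was far wider than the spread within either, and the fall was 0.49 log2 units (SE 0.06), or 1.41-fold, at a limma adjusted p of 0.0050. It passed in all 14 alternative settings, with a highest limma adjusted p of 0.0324. By subgroup, the median was -0.021 for 27 initiation and fork genes, -0.07 for 7 fork protection and checkpoint genes, 0.05 for 8 chromatin genes, 0.06 for 12 G1/S genes and 0.08 for 4 nucleotide genes. At an unadjusted limma p below 0.05, 4 G1/S genes were higher and 1 lower (41.7%). In the other subgroups this share ran from 0% to 25%. Whether the subgroups differ was not tested. The extremes that did not pass, named after their values were seen, were cyclin A2 (Ccna2, 0.28) and the nuclease-helicase Dna2 (-0.29), with limma adjusted p of 0.0763 and 0.091.

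Beside the mitotic programme of the same cells, the replication genes moved little. Of 19 mitosis genes measured in the same fit, 17 were higher in Cre (89.5%), 16 without overlap (84.2%), and the median difference was 0.16. Of the 19, 3 passed limma's test, all higher in Cre, against 1.35% of all genes called higher. Among the 6726 genes at least as bright as the dimmest member, 139 were called higher. The number of mitosis genes that passed was 0 or 1 in each fit with any 1 of the 6 arrays left out. It was 1 without Cre replicate 3. With the repeat number as a block it was 0. The count was 5 and 7 without the lowest 25% and 50% of genes and 10 with a variance trend and robust fit, where all-gene calls also rose, from 689 to 940, 1295 and 1558. Among all genes, 49.1% were higher in Cre and 10.3% were so without overlap. Of the 6726 genes at least as bright as the dimmest member, 47.5% were higher and 1083 were so without overlap. The corresponding counts for the 43 replication genes were 28 and 8, with a median of 0.018. Whether the groups differ was not tested.

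**Figure D4:**
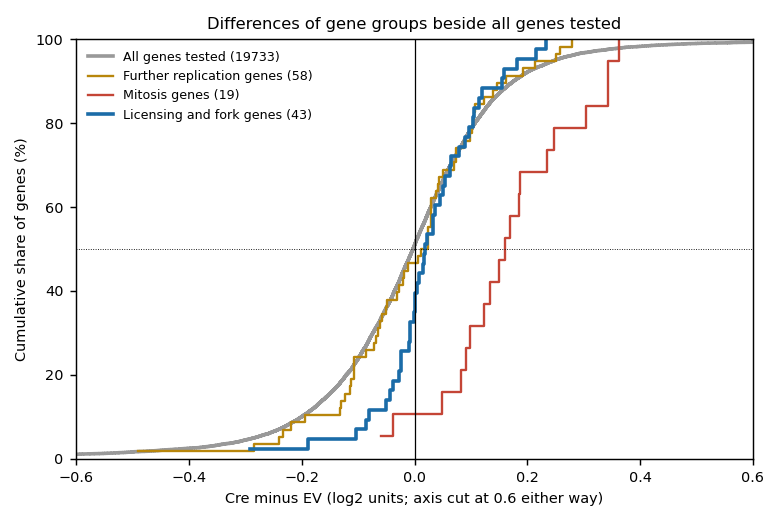
Cumulative share of genes (%) against the difference between Cre and EV (log2 units, shown from -0.6 to 0.6) for the 43 licensing and fork genes, the 58 further replication genes, 19 mitosis genes and all 19733 genes tested. The licensing and fork genes rise steeply around 0 (median 0.018), and the mitosis genes lie to the right (median 0.16).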

How the data were processed

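Total RNA of 6 samples was hybridised as biotin-labelled cRNA on Affymetrix arrays, each holding a single sample, per the labels' protocols. The deposited values are log2 levels made by the authors with RMA (background correction, quantile normalization, probe summary), as the submitters' processing notes record (per the labels); its version was not given in the sources used. Quantile normalization hides a change common to all genes. Of 25006 probe sets, the platform annotation gave 21467 a single symbol, 1521 several and 2018 none; only the first kind was tested, with the brightest probe set for each of 931 genes with several. No low-value filter was used. Groups were compared with limma 3.58.1 in R 4.3.3 (lmFit, eBayes, no block; Benjamini-Hochberg over 19733 genes). Levels are read as given, and differences are Cre minus EV with SE and 95% interval. The number of arrays limits the precision. The test was tried on simulated data for Cre against EV with 19733 genes: it recovered 42% of changes of 0.5 log2 units and 86% of changes of 1, and called 0 genes where none had been changed. The changed genes were drawn at random from all genes, whose median SD within a group was 0.108, against 0.063 for the members. These recovered shares therefore do not describe the members.

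The members and lists were chosen with earlier results of these data known. Values on every array are given for the 3 members of each role with the smallest p (and any that passed), and for further replication genes that passed. Mcm5, Pcna and Orc3 were added after their values were seen. Alternatives were re-normalization, median centring, level filters of 25% and 50%, eBayes with trend and robust settings, array weights, probe averaging, the repeat number as a block, and each array left out. Promoter windows were read from a RefSeq table with Python 3.11.15; 1670 of 1670 overlapping windows on opposite strands were reverse complements, so sequences follow the gene's strand. List entries that are not named or counted as measured are not reported here.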

Additional observations from a re-analysis of the deposited data

How the results depend on the processing

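The count of members that passed was 0 in 12 of 14 alternatives and 1 (Ccne2) without the lowest 50% of genes and with trend and robust settings. Of the further replication genes, 1 passed as reported, 3 without the lowest 25% of genes, 7 without the lowest 50% and 6 with trend and robust settings. Over all genes the calls rose from 689 to 1295 without the lowest 50% and to 1558 with trend and robust settings, and were 362 to 424 with 1 array left out (fewest without EV replicate 2). The number of members without overlap was 11 as reported and 13 to 16 with 1 array left out, where fewer arrays make overlap rarer. The members' median difference was 0.015 to 0.034 in those fits. The medians of 3 roles moved by more than the SD between arrays of that role's mean level (0.0268 for the clamp genes, 0.00957 for the polymerase genes and 0.0458 for the G1/S set). With 1 array left out, that of the clamp genes ranged from -0.041 (without EV replicate 1) to 0.055 (without EV replicate 2), that of the polymerase genes from -0.005 (without EV replicate 2) to 0.030 (without EV replicate 1), and that of the G1/S set from -0.005 (without EV replicate 1) to 0.082 (without EV replicate 3); after quantile normalization again the polymerase median was 0.036. The cause was not tested. The sign of E2f1 turned without Cre replicate 3 (-0.023) and EV replicate 2 (-0.019), in a range up to 0.117. Ccna2 also passed without the lowest 25% and 50% of genes and with trend and robust settings, and Dna2 in the last 2 of these. The differences of the other members given array by array, of Mcm5, Pcna and Orc3 and of Tfdp2 and Ppp2r1a kept their sign and side of the threshold in all 14; those of Ccne2, Ccna2 and Dna2 kept their sign.

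With the repeat number as a replicate block, 0 members and 1 further gene passed, and 425 genes over all. The numbers were not found to pair the arrays: deviations of same-numbered arrays correlated at 0.0094, -0.012 and 0.030 over all genes.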
